A study of Homo sapiens with 2 samples.

Results

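Chromatin modifiers and remodellers were described in Hep3B cells, an established human hepatocellular carcinoma line, exposed to 25 µM A4368 for 24 h or left untreated, with 1 RNA-seq library of each (labelled A4368 and Control). Both groups were grown in DMEM with serum, the vehicle is not given in the sources used here, and A4368 is a compound known only by this code. The members were the genes of the table with values whose symbol begins with KDM, KMT, KAT, HDAC, SIRT, SETD, EHMT, PRMT, BRD, CHD or DNMT and a digit, or with SMARC or SETDB, and holds no hyphen. The rule found 100 of 11511 genes: 38 writers, 34 erasers, 7 readers and 21 remodellers.

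In nucleosomes, DNA winds around histones whose tails carry acetyl and methyl groups. Writers add these groups to histones or to DNA, erasers take them off, readers such as bromodomain proteins bind them, and remodellers use ATP to slide, evict or exchange nucleosomes. Several of the enzymes also, or mainly, act on proteins outside chromatin. In liver tumours the SWI/SNF remodellers and the H3K4 methyltransferases are among the chromatin genes known to be mutated.

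All values were read as FPKM, although no unit is given with them. In FPKM the fragments of a gene are divided by its transcript length and by the mapped fragments of the library. Levels of different genes can then be set side by side. The change of a gene is given as log2((A4368 + 1)/(Control + 1)), while folds such as 1.58-fold divide one deposited value by the other. Sizes are described by limits on the log2 scale of 0.32 log2 units, which is a ratio of 5 to 4, and of 1.5-fold and 2-fold. With 1 library per group no value has a replicate error, no test was possible, and any difference is a difference between a pair of libraries. The depth of the libraries is unknown. In bulk RNA, fewer cells of a type and less RNA per cell cannot be told apart. The 8 hepatocyte and hepatoma markers chosen as a check all had values, from 55.4 to 8930 FPKM with A4368 and from 62.5 to 9183 FPKM in Control, and no value was listed for the 4 leukocyte, 3 endothelial and 4 fibroblast or stellate markers.

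The chromatin genes differed little between the libraries. Of the 100 members, 99 had a mean of at least 1 FPKM, and of these 60 lay within 1.1-fold, or 60.6%, against 50.04% of all 11238 genes with such a mean. At the limit of 0.32 log2 units, 3 members were higher and 6 lower with A4368, or 9.09% in all, against a background of 15.1% over the table (7.31% higher and 7.79% lower). The balance of the directions depended on the scaling: with both libraries scaled to equal sums over all but the 50 highest genes, 7 members were higher and 4 lower, and of all genes 1130 were higher and 698 lower, beside 822 and 876 as deposited. At 1.5-fold, SIRT2 was higher and HDAC9 lower, which is 2.02% of members beside 3.19% of all genes (1.08% higher and 2.12% lower). The median log2 ratio was -0.01 over the members and 0.01 over all genes, and the ratios had an SD of 0.22 among members and 0.26 among all genes. At 2-fold, where 0.116% of all genes were higher and 0.436% lower, HDAC9 was the member past the limit, 1.01% of members beside 0.552% of all genes. Spread depends on level: among all genes with a mean of 5 to 20 FPKM, where 62 members lie, 15.4% were past 0.32 log2 units.

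**Figure D1:**
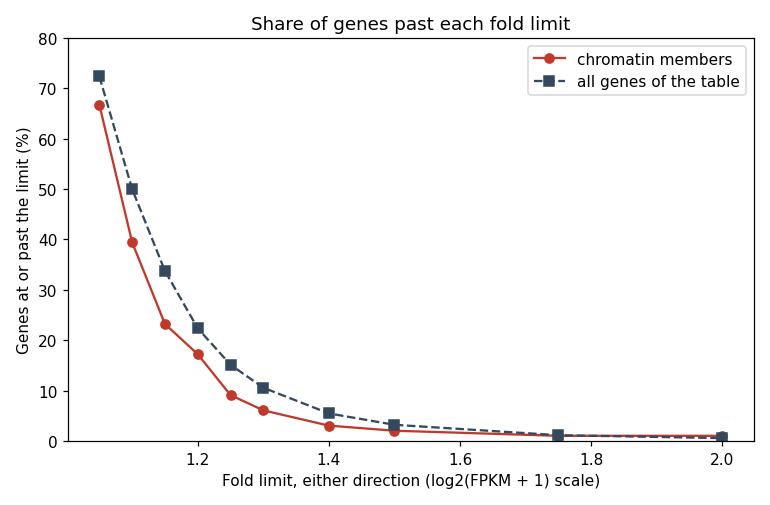
Percentage of genes (y axis) at or past each fold limit in either direction (x axis, log2(FPKM + 1) scale) for the 99 chromatin members kept and for all 11238 genes kept. The line of the members lies below that of the table at the lower limits, with 39.4% against 49.96% at 1.1-fold and 9.09% against 15.1% at 0.32 log2 units.

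The classes lay close together. The writers had a median log2 ratio within 0.01 of 0, the erasers one of -0.01, the readers one of 0.07 and the remodellers one of -0.07. After the scaling to equal sums, these medians were 0.05, 0.04, 0.12 and -0.02, beside 0.06 for all genes. With no limit on size, 5843 of the 11238 genes were higher with A4368 and 5395 lower as deposited, and 6844 were higher and 4394 lower after the scaling. Past 0.32 log2 units were 2 of 37 writers, 5 of 34 erasers, 0 of 7 readers and 2 of 21 remodellers. The erasers had the largest SD, 0.28 log2 units, beside 0.18 in writers, 0.20 in readers, 0.15 in remodellers and 0.26 in all genes. This spread was not shared by the whole class. The SD was 0.11 in the KDM family, 0.32 in SIRT and 0.41 in HDAC, where HDAC9 lay at -1.05. No member of the KDM, PRMT, BRD or lysine methyltransferase families was past 0.32 log2 units, and 14 of 16 KDM genes were within 1.1-fold. Of the 18 deacetylase genes (HDAC and SIRT) 5 were past it, or 27.8%, beside 15.1% of all genes, a difference that was not tested.

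**Figure D2:**
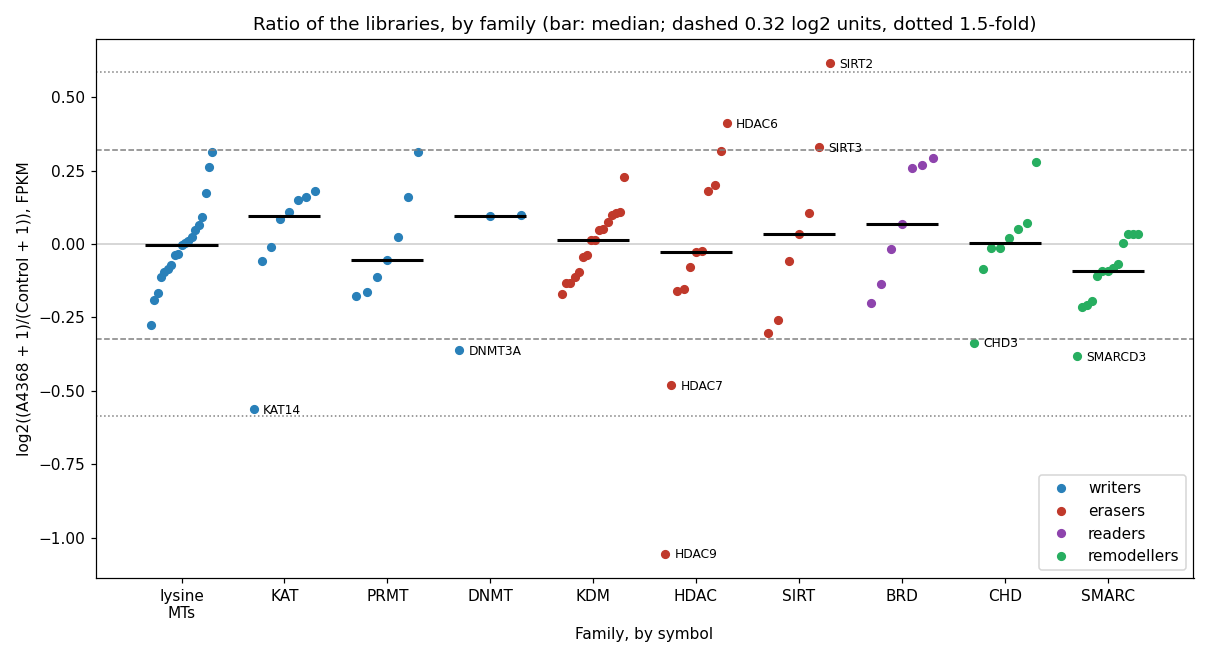
Log2 ratio of A4368 over Control (y axis, FPKM with a pseudocount of 1) of the 99 members kept, by family (x axis). Each point is a gene, bars are family medians, and dashed and dotted lines mark 0.32 log2 units and 1.5-fold. The 9 genes past 0.32 log2 units are named, with HDAC9 at -1.05 and SIRT2 at 0.62 at the ends.

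The 3 members that were higher by at least 0.32 log2 units were SIRT2, HDAC6 and SIRT3. SIRT2, a mainly cytoplasmic deacetylase of tubulin, was at 17.9 FPKM with A4368 and 11.3 FPKM in Control, 1.58-fold higher, and had the 100th highest ratio of the 11238 genes. HDAC6, the other main tubulin deacetylase, was at 8.26 FPKM with A4368 and 5.96 FPKM in Control, 1.39-fold higher. SIRT3, a deacetylase of the mitochondrial matrix, was at 11.1 FPKM with A4368 and 8.65 FPKM in Control, 1.29-fold higher. All 3 belong to the 10 members listed as acting mainly on proteins or molecules other than histones. That list was drawn up with earlier results of these data known. Of the others on it, HDAC10, SETD4 and SIRT5 were higher short of the limit, at log2 ratios of 0.318, 0.313 and 0.03. SIRT4, SMARCAL1, SETD3 and SETD6 were lower, at -0.26, -0.21, -0.17 and -0.03. Among the 89 remaining members 6 were past the limit, beside 7.31% of all genes higher and 7.79% lower. That all 6 were lower follows from the list, which holds all 3 higher members. With both libraries scaled to equal sums, BRD8 and PRMT2, which are not on the list, were higher past the limit, and CHD3 and DNMT3A fell short of it. Whether direction goes with substrate was not tested.

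The 6 lower members came from several families. HDAC9, a class IIa deacetylase that works as a corepressor of MEF2 factors, was at 5.96 FPKM with A4368 and 13.4 FPKM in Control, 2.26-fold lower, the 40th lowest ratio in the table. HDAC7, of the same class, was at 12.1 FPKM with A4368 and 17.3 FPKM in Control, 1.43-fold lower. KAT14, a subunit of the ATAC acetyltransferase complex, was at 6.94 FPKM with A4368 and 10.7 FPKM in Control, 1.55-fold lower and at a log2 ratio of -0.56 with the pseudocount, short of 1.5-fold on that scale. These 3 genes and SIRT2 make up the 4 members past 0.32 log2 units also with a pseudocount of 5. SMARCD3, an alternative SWI/SNF subunit best known from heart and muscle, was at 2.85 FPKM with A4368 and 4.03 FPKM in Control, 1.41-fold lower. DNMT3A, a de novo DNA methyltransferase, was at 17.8 FPKM with A4368 and 23.2 FPKM in Control, 1.301-fold lower. CHD3, an ATPase of the NuRD complex, was at 8.09 FPKM with A4368 and 10.5 FPKM in Control, 1.29-fold lower. Just under the limit on the higher side lay HDAC10, SETD4 and PRMT2, at log2 ratios of 0.318, 0.313 and 0.312. Which genes pass depends on the pseudocount. Without it, HDAC10, SETD4 and CHD9 were 1.278-fold, 1.284-fold and 1.353-fold higher, past a ratio of 5 to 4. SIRT4 and SIRT6 were 1.271-fold and 1.2503-fold lower, also past it.

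The promoter windows of the genes at the ends of the range (the lowest ratio, its class IIa relative, the lowest writer and the highest ratio) are shown for their base composition. They run from 250 bases before to 50 after the RefSeq gene start of GRCh38.p14, which may not be the start used in Hep3B. Capitals mark CCAAT boxes, read on either strand.
HDAC9: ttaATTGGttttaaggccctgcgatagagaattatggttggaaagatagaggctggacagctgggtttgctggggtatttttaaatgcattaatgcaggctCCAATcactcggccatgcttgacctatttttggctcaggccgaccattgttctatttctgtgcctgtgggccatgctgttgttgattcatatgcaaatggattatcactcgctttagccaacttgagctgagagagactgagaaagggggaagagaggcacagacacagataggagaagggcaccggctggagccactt
HDAC7: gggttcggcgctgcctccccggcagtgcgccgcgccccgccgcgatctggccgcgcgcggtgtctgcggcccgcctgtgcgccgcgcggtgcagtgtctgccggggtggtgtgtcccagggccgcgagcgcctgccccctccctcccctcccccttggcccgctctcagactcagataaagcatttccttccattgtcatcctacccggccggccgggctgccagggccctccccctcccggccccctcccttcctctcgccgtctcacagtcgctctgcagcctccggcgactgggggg
KAT14: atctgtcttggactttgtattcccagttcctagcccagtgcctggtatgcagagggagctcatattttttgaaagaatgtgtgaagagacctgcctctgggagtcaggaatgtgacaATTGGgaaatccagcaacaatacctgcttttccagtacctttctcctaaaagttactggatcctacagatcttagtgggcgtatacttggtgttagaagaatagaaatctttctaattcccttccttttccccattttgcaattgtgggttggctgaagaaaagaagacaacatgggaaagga
SIRT2: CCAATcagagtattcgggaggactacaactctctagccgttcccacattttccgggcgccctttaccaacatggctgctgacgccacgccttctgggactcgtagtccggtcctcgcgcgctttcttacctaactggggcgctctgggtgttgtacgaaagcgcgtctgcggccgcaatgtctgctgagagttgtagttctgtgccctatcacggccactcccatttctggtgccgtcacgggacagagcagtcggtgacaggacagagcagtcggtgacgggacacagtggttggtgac
These windows are chr7:18495499-18495798 (plus strand, HDAC9), chr12:47819854-47820153 (minus strand, HDAC7), chr20:18144849-18145148 (plus strand, KAT14) and chr19:38899569-38899868 (minus strand, SIRT2). HDAC9 held 5 CpG dinucleotides in its 300 bases and KAT14 held 1, while SIRT2 held 23 and HDAC7 held 33. The median was 29 in the 90 members with such a window and 27 in 9037 genes of the table. HDAC9 and KAT14 were among 5 members with under 10 CpG, the others being DNMT3B, HDAC4 and HDAC8, whose log2 ratios were 0.10, 0.20 and -0.08. None of the 4 windows held a GC box (GGGCGG, either strand), which occurred in 71.1% of the members' windows, 71.1% of those of the table and 44.6% of all 27305 windows. A CCAAT box occurred in 28.9% of the members' windows, 37.1% of those of the table and 35.7% of all. The letters TATAAA, on either strand, were in 0 of the 90 members' windows, against 5.03% of those of the table and 12% of all. The letters TGANTCA, with any base at N, are a looser pattern than the AP-1 site. They were in the HDAC9 window, as TGATTCA, and in 5.56% of the members' windows, 4.06% of those of the table and 7.76% of all. 

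Among the writers, the arginine methyltransferases held the highest level of all members. PRMT1, the main enzyme of asymmetric arginine dimethylation, was at 209 FPKM with A4368 and 217 FPKM in Control. PRMT5, which makes symmetric dimethylarginine, followed within the family at 55.1 FPKM with A4368 and 59.7 FPKM in Control. PRMT2 was at 42.5 FPKM with A4368 and 34.0 FPKM in Control, the highest ratio of the family at 1.249-fold. PRMT6, which methylates arginine 2 of histone H3, had the lowest, at 17.5 FPKM with A4368 and 19.9 FPKM in Control. The family median was -0.05 log2 units, with 3 of 7 members higher.

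The lysine methyltransferases numbered 20, of which SETDB2 stood at 0.9998 FPKM with A4368 and 0.92 FPKM in Control and was the member under the filter. Of the other 19, 9 were higher and 10 lower with A4368 (12 and 7 after the scaling), and 13 lay within 1.1-fold. The 6 H3K4 enzymes KMT2A, KMT2B, KMT2C, KMT2D, SETD1A and SETD1B lay between 2.99 and 9.21 FPKM with A4368 and between 2.74 and 9.54 FPKM in Control, and their summed level was 41.0 FPKM in each library. KMT2D, which acts at enhancers, had the highest ratio of them, with 9.21 FPKM with A4368 and 8.05 FPKM in Control. The H4K20 enzymes were higher in level, KMT5B at 37.5 FPKM with A4368 and 37.4 FPKM in Control and KMT5A at 24.1 FPKM with A4368 and 25.4 FPKM in Control. KMT5C, which like KMT5B makes the di- and trimethylated forms, was at 12.5 FPKM with A4368 and 10.2 FPKM in Control. Of the H3K9 enzymes, EHMT2 was at 31.2 FPKM with A4368 and 32.1 FPKM in Control, EHMT1, its partner, at 12.5 FPKM with A4368 and 12.02 FPKM in Control, and SETDB1 at 13.2 FPKM with A4368 and 15.2 FPKM in Control. The ends of the family were SETD4, at 7.41 FPKM with A4368 and 5.77 FPKM in Control, and SETD9, at 6.46 FPKM with A4368 and 8.02 FPKM in Control. SETD2, the enzyme of H3K36 trimethylation, was at 6.24 FPKM with A4368 and 6.12 FPKM in Control.

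Of the 8 KAT genes, 5 were higher and 3 lower with A4368 (6 and 2 after the scaling), and KAT14 stood alone past 0.32 log2 units. KAT2A and KAT2B, the interchangeable acetyltransferases of the SAGA and ATAC complexes, were at 35.97 and 6.83 FPKM with A4368 and at 32.05 and 5.90 FPKM in Control. Both were thus higher by 1.12-fold and 1.16-fold while KAT14 of the ATAC complex was lower. The 5 MYST enzymes were near level, with KAT5, the TIP60 acetyltransferase, at 30.7 FPKM with A4368 and 30.96 FPKM in Control, and the paralogs KAT6A and KAT6B at 12.6 and 2.48 FPKM with A4368 and 11.6 and 2.13 FPKM in Control. KAT7 and KAT8, which acetylate H3 and H4 in separate complexes, were at 16.5 and 18.5 FPKM with A4368 and at 17.2 and 17.4 FPKM in Control. Other genes share 16.4% of the 31-base words of KAT14 in GENCODE release 29, PET117 most of all. PET117 lies on the same strand and was at 21.2 FPKM in both libraries. Of the words of KAT5, 33.3% are shared with other genes, most of all with RNASEH2C on the opposite strand.

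DNA methyltransferases were led by DNMT1, which copies methylation after replication, at 50.5 FPKM with A4368 and 47.2 FPKM in Control. The de novo enzymes went opposite ways, DNMT3A being 1.301-fold lower and DNMT3B being at 13.02 FPKM with A4368 and 12.1 FPKM in Control. DNMT3A thus made up 57.8% of the sum of both with A4368 and 65.8% in Control.

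Among the erasers, the class I deacetylases HDAC2 and HDAC1, catalytic subunits of the NuRD, SIN3 and CoREST complexes, had the highest levels. HDAC2 was at 111 FPKM with A4368 and 123 FPKM in Control, and HDAC1 at 79.1 FPKM with A4368 and 88.4 FPKM in Control, 1.11-fold and 1.12-fold lower, so that HDAC1 made up 41.6% of their sum with A4368 and 41.7% in Control. HDAC3, the NCOR enzyme, was at 25.3 FPKM with A4368 and 22.2 FPKM in Control, and HDAC8 at 12.8 FPKM with A4368 and 13.6 FPKM in Control. The summed level of class I was 228 FPKM with A4368 and 248 FPKM in Control.

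Class IIa was divided. HDAC9 and HDAC7 were lower, while HDAC5 was at 7.69 FPKM with A4368 and 7.83 FPKM in Control and HDAC4 at 3.62 FPKM with A4368 and 3.02 FPKM in Control. The summed level of the 4 genes was 29.4 FPKM with A4368 and 41.6 FPKM in Control. With the lower HDAC9, HDAC7 made up 67.1% of the HDAC7 and HDAC9 sum with A4368 and 56.3% in Control, the largest move in percentage points among the 25 pairs of related genes measured. Both class IIb genes had higher values, HDAC6 as given above and HDAC10, a polyamine deacetylase, at 9.91 FPKM with A4368 and 7.75 FPKM in Control. Of the words of HDAC10, 47.9% are shared with other genes, most of all with the neighbouring gene MAPK12. The HDAC10 value may therefore hold reads of MAPK12. HDAC11, of class IV, was at 12.1 FPKM with A4368 and 12.4 FPKM in Control.

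**Figure D3:**
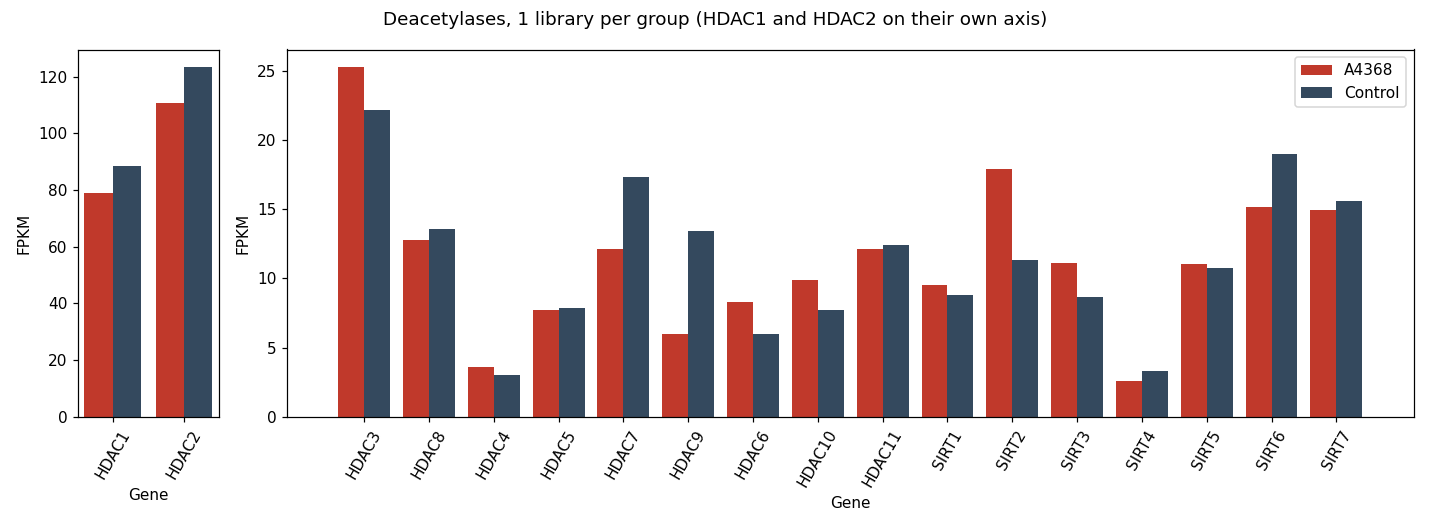
FPKM (y axis) of the 18 HDAC and SIRT genes (x axis), with the A4368 library left of the Control library and no error bars because each group is 1 library. HDAC9 stands at 5.96 FPKM with A4368 against 13.4 FPKM in Control and SIRT2 at 17.9 against 11.3 FPKM.

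Sirtuins, deacylases that use NAD, also went both ways. Of the nuclear ones, SIRT6, which acts on H3K9 and H3K56 acetylation, was at 15.2 FPKM with A4368 and 19.0 FPKM in Control, with a log2 ratio of -0.30. SIRT1 was at 9.51 FPKM with A4368 and 8.77 FPKM in Control, and SIRT7 at 15.0 FPKM with A4368 and 15.6 FPKM in Control. Of the mitochondrial ones, SIRT3 was higher, SIRT5 was at 11.1 FPKM with A4368 and 10.8 FPKM in Control, and SIRT4 was at 2.58 FPKM with A4368 and 3.29 FPKM in Control. SIRT1 made up 34.7% of the sum of SIRT1 and SIRT2 with A4368 and 43.6% in Control.

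The 16 histone demethylases covered a median log2 ratio of 0.01 with an SD of 0.11. The highest level was that of KDM2A, an H3K36 demethylase that binds unmethylated CpG islands, at 63.4 FPKM with A4368 and 65.4 FPKM in Control, followed by the H3K4 demethylase KDM1A (LSD1) at 36.8 FPKM with A4368 and 39.5 FPKM in Control. The highest ratio was that of KDM3A, an H3K9 demethylase known as a hypoxia target, at 15.3 FPKM with A4368 and 12.9 FPKM in Control, 1.18-fold higher. The H3K27 demethylase KDM6A had the lowest log2 ratio with the pseudocount, -0.17, at 9.53 FPKM with A4368 and 10.9 FPKM in Control. KDM5B, at 19.2 FPKM with A4368 and 21.1 FPKM in Control, and KDM7A, at 1.36 FPKM with A4368 and 1.59 FPKM in Control, were nearly tied behind it at -0.13. Without the pseudocount KDM7A, which acts on both H3K9 and H3K27, had the lowest ratio of the family, 1.17-fold lower. The KDM3 and KDM4 genes, which also act on H3K9, were above Control by 1.01-fold to 1.18-fold in 5 of 5. Of all 11238 genes 5843 were above Control as deposited and 6844 after the scaling to equal sums. The grouping was made with the values known and leaves out KDM7A, which was lower. It also leaves out demethylases with other symbols, of whatever substrate, among which 3 of the 6 with values were higher and 3 lower. Of the words of KDM4A, 47.2% are shared with other genes. KDM6B, a paralog of KDM6A, was at 5.82 FPKM with A4368 and 6.37 FPKM in Control. Set against their writers, the H3K4 demethylases summed to 101 FPKM with A4368 and 102 FPKM in Control, beside 41.0 FPKM in each library for the 6 H3K4 methyltransferases.

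**Figure D4:**
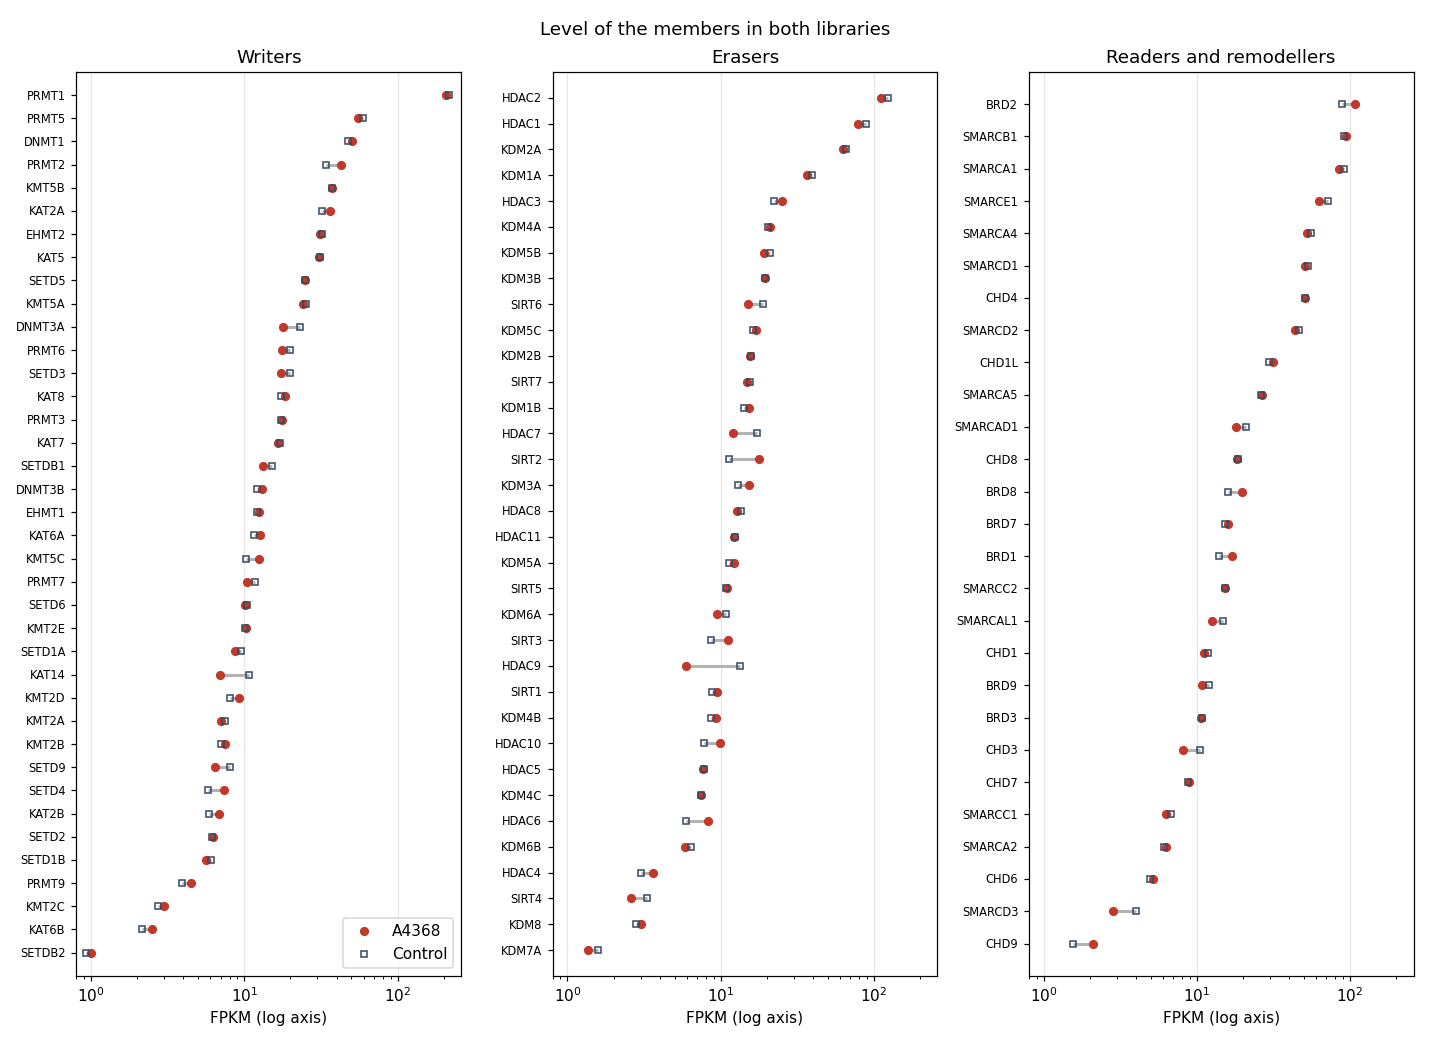
FPKM (x axis, log scale) of 99 of the 100 members (y axis, ordered by mean within each panel), with a filled circle for A4368 and an open square for Control. Levels run from SETDB2, at 0.9998 FPKM with A4368 and 0.92 FPKM in Control, to PRMT1, at 209 FPKM with A4368 and 217 FPKM in Control, and most symbols of a gene overlap or touch.

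The bromodomain readers had BRD2 far above the rest. BRD2, a BET protein that binds acetylated histone H4, was at 108 FPKM with A4368 and 89.2 FPKM in Control, 1.21-fold higher. BRD3, of the same BET family, was at 10.7 FPKM with A4368 and 10.8 FPKM in Control. BRD8, a subunit of the TIP60 complex, and BRD1, a scaffold of MYST acetyltransferase complexes, were at 19.8 and 16.9 FPKM with A4368 and at 16 and 14.01 FPKM in Control. The SWI/SNF subunits BRD7 and BRD9, which mark different forms of the complex, were at 16.1 and 10.8 FPKM with A4368 and at 15.3 and 11.96 FPKM in Control. However, 58.3% of the words of BRD7 are shared with other genes, most of all with ADCY7 on the opposite strand. The strandedness of the libraries is not given in the sources used here, so reads of such overlapping genes cannot be told apart.

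Of the 9 SWI/SNF subunits with a SMARC symbol, SMARCD3 was lower past 0.32 log2 units and the other 8 were within it. SMARCA4 (BRG1), one of its alternative ATPases, was at 52.7 FPKM with A4368 and 55.8 FPKM in Control, and the other, SMARCA2 (BRM), at 6.25 FPKM with A4368 and 6.09 FPKM in Control, so that SMARCA4 made up 89.4% of both with A4368 and 90.2% in Control. Among core subunits SMARCB1 was at 93.9 FPKM with A4368 and 91.6 FPKM in Control, and SMARCE1 at 62.5 FPKM with A4368 and 72.3 FPKM in Control. The scaffold SMARCC2 was at 15.2 FPKM in both libraries, and its paralog SMARCC1 was lower in level, at 6.26 FPKM with A4368 and 6.83 FPKM in Control. SMARCD1 and SMARCD2, at 51.1 and 43.5 FPKM with A4368 and 53.5 and 46.4 FPKM in Control, were far above SMARCD3. Of the 13 SMARC genes 9 were lower with A4368 as deposited (median -0.09 log2 units) and 9 after the scaling to equal sums (median -0.04), beside 5395 and 4394 of all 11238 genes. These 13 include 4 genes outside the SWI/SNF complex, SMARCA1, SMARCA5, SMARCAD1 and SMARCAL1, and of the 9 within it 6 were lower as deposited.

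Among the other remodellers, the ISWI ATPase SMARCA1 (SNF2L) was above its paralog SMARCA5 (SNF2H) in both libraries. SMARCA1 was at 85.1 FPKM with A4368 and 90.8 FPKM in Control, and SMARCA5 at 26.8 FPKM with A4368 and 26.2 FPKM in Control. SMARCAL1, an annealing helicase of stalled replication forks, and SMARCAD1 were at 12.6 and 18.1 FPKM with A4368 and at 14.8 and 20.8 FPKM in Control. CHD4, the main NuRD ATPase, was at 50.6 FPKM with A4368 and 51.1 FPKM in Control, and CHD3 made up 13.8% of the sum of both with A4368 and 17.0% in Control. Of the words of CHD4, 55.7% are shared with other genes, most of all with an overlapping annotated gene on the same strand. CHD8 and CHD7, of the subfamily linked to developmental enhancers, were at 18.4 and 8.88 FPKM with A4368 and at 18.5 and 8.74 FPKM in Control. CHD9 had the highest ratio of the family at a low level, with 2.11 FPKM with A4368 and 1.56 FPKM in Control. CHD1L, a PARP-activated remodeller that is often amplified in liver cancer, was at 31.3 FPKM with A4368 and 29.7 FPKM in Control.

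**Figure D5:**
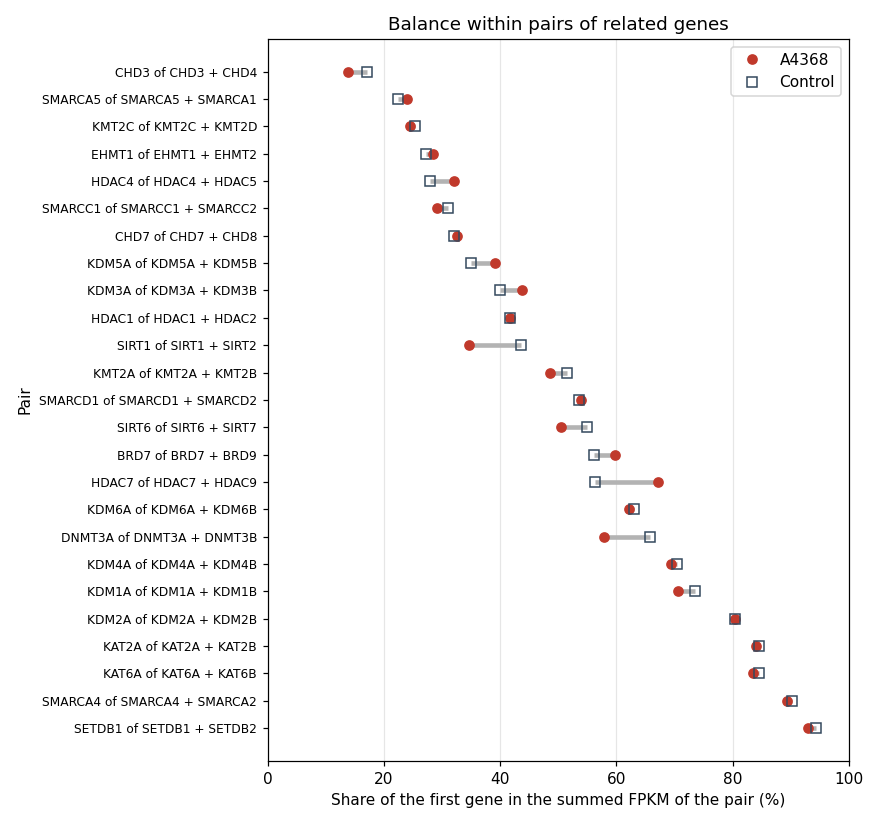
Share of the first gene in the summed FPKM of 25 pairs of related genes (x axis, percent, one row per pair), with a filled circle for A4368 and an open square for Control. HDAC7 of HDAC7 and HDAC9 moved most in percentage points, at 67.1% with A4368 against 56.3% in Control.

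The balance within pairs of related enzymes or subunits was measured as the share of the first gene in the sum of both, which moves less where one gene makes up most of the sum. Besides the pairs given above, SIRT6 made up 50.4% of SIRT6 and SIRT7 with A4368 and 54.9% in Control. KDM5A made up 39.1% of KDM5A and KDM5B with A4368 and 34.9% in Control, and KDM3A 43.8% of KDM3A and KDM3B with A4368 and 40.0% in Control.

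Partners of these enzymes in the same complexes, taken from 10 lists of other symbols, were measured for 143 of 155 symbols. Of them 6 were higher and 2 lower by at least 0.32 log2 units, or 5.59%, beside the 15.1% of all genes, and their median log2 ratio was within 0.01 of 0. The higher ones included EZH1, the minor H3K27 methyltransferase, at 4.89 FPKM with A4368 and 3.41 FPKM in Control, beside EZH2, the main one, at 20.1 FPKM with A4368 and 23.8 FPKM in Control. PHF19, an accessory subunit that guides the same PRC2 complex, was lower, at 20.8 FPKM with A4368 and 29.4 FPKM in Control. TADA2A, a subunit of the ATAC complex like KAT14, was at 9.84 FPKM with A4368 and 7.13 FPKM in Control, and EP400, the ATPase of the TIP60 complex, at 9.76 FPKM with A4368 and 7.46 FPKM in Control. MTA3, a NuRD subunit like CHD3, was at 21.9 FPKM with A4368 and 28.3 FPKM in Control, and the SIN3 subunit SAP30 at 16.6 FPKM with A4368 and 12.9 FPKM in Control. SMYD3, a lysine methyltransferase, was at 18.4 FPKM with A4368 and 14.3 FPKM in Control. None of the 11 COMPASS subunits, which work with the H3K4 methyltransferases, was past 0.32 log2 units, and they lay between log2 ratios of -0.10 and 0.17. The same held for the 12 SWI/SNF subunits with other symbols that had values, from ARID2 at -0.25 to SS18 at 0.20.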

How the data were processed

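RNA of Hep3B cells exposed to A4368 and of untreated Hep3B cells was sequenced, 1 library each. The authors deposited 1 table with a value per gene symbol and library, with no unit in its header. Tools named in the submitters' processing notes are Bowtie2 2.2.3, TopHat2 2.0.12 and Cufflinks, with the build hg19, so the deposited values were read as FPKM estimated by Cufflinks. For the annotation, filters and strandedness nothing is given in the sources used here. Of 24302 lines, 11511 held both values. Ratios used a pseudocount of 1 and a minimum mean of 1 FPKM, which left 11238 genes. With 1 library per group, counts past 0.32 log2 units and 1.5-fold stand as a description beside those of all genes. FPKM carry no counts, so no interval could be given.

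The members and lists were chosen with earlier results of these data known. By a rule, 75 members were to be named: in each family the highest mean, the 2 highest and 2 lowest ratios, members past 1.5-fold, and both genes of each pair. Of partner lists the highest and lowest ratio were to be named. Of these, 1 member, with its pair, and 1 partner gene are not reported here, though counts and medians of the lists include them. Other genes were named after their values were seen, among them the subgroups of enzymes by substrate. Shared sequence counts how many of the 31-base words of a gene, as a percentage, are found in transcripts of other genes (GENCODE release 29, all 100 members matched by symbol). Promoter windows came from RefSeq (GRCh38.p14, 90 members matched). A run on simulated data checked only that the code works as meant. Its changes lay far past the limit and its noise was well under the spread of the real ratios. It therefore gives no rate of false calls for these libraries. Python 3.11.15, numpy 2.4.6, pandas 2.3.3 and matplotlib 3.10.9 were used.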

Additional observations from a re-analysis of the deposited data

How the results depend on the processing

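No paired analysis was possible because each group is 1 library, and for the same reason no library could be left out. Median ratios of the members and of the 4 classes moved by under 0.1 log2 units under each alternative, and no named member past 0.32 log2 units changed direction. Counts at 0.32 log2 units were 3 members higher and 6 lower as reported. They were 6 higher with a pseudocount of 0.1, and 1 higher and 3 lower with a pseudocount of 5. After scaling both libraries to equal sums over all but the 50 highest genes, they were 7 higher and 4 lower. Without the 10 members listed as acting mainly on other substrates, 0 were higher. That 0 follows from the list, which holds all 3 higher members and was drawn up with earlier results of these data known. At 1.5-fold, 2 members were lower with a pseudocount of 0.1, and 0 were higher with a pseudocount of 5 or at a 2-fold limit. Without those 10 members 0 were also higher at 1.5-fold, because SIRT2 is on the list. After the rescaling, which moved the median of all genes by 0.05, 7 of the 9 reported members stayed past 0.32 log2 units, CHD3 and DNMT3A fell short of it, and BRD8, HDAC10, PRMT2 and SETD4 passed it. Over the whole table, counts at 1.5-fold (121 higher, 238 lower) were 259 and 369 with a pseudocount of 0.1, 20 and 78 with a pseudocount of 5, and 58 and 140 with a minimum mean of 5 FPKM. Those at 0.32 log2 units (822 and 876) were 1130 and 698 after the rescaling, 259 and 432 with a pseudocount of 5 and 499 and 561 with a minimum mean of 5 FPKM, where fewer genes are tested. A larger pseudocount shrinks the ratios of low genes by construction. The run without the 10 members that share at least 20% of their sequence or exons with other genes was chosen after seeing the data and gave the same counts. These members are BRD7, CHD4, HDAC10, KAT5, KDM4A, KMT2A, PRMT5, SETD6, SIRT5 and SMARCE1. The unknown depth limits what can be said of members under 5 FPKM.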
